A study of Homo sapiens with 9 samples.

Results

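The 48 genes described here act in the mitotic spindle, the spindle checkpoint and cytokinesis, and their expression was measured in AsPC-1 cells, an established human line of pancreatic adenocarcinoma, after knockdown of STOML2. Their rows were taken by gene symbol, and the list was made with earlier results of these data known. All 48 were found, with 1 row each, among 17687 genes with a symbol on the array. In the sh1 group, cells carried a pBAsi-hU6 NEO plasmid with shRNA-1 against SLP-2, the STOML2 product, and in the sh2 group the same plasmid type with shRNA-2. The control cells carried the blank plasmid. All 3 groups had been transfected, had gone through 3 weeks of Geneticin and had been grown from 1 picked colony, so each group is 1 clone, and 3 arrays were run per group from 100 ng of total RNA each. The labels do not state whether separate cultures were used within a group. The p-values therefore reflect variation among 3 arrays of the same clone, part or all of which may be technical. RNA was extracted from whole cultures, in which a larger share of cells in mitosis and more RNA per mitotic cell cannot be told apart.

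Cells enter mitosis when CDK1, bound to cyclin B, is switched on by CDC25 phosphatases, and Aurora and Polo kinases then drive the building of the spindle. Kinetochores tie chromosomes to spindle microtubules, and the spindle checkpoint holds back the anaphase-promoting complex until all are attached. The complex then marks securin and cyclin B for destruction, separase opens cohesin, and midzone proteins place the cleavage furrow. Most of these genes are transcribed late in the cell cycle, under control of the DREAM complex, B-MYB and FOXM1, through promoter elements known as the cell cycle genes homology region (CHR) and the CCAAT box bound by NF-Y.

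Promoter windows of RefSeq (GRCh38.p14), each with 250 bases before and 50 after a transcription start, were found for 41 of the 48 genes, 6 of them with several starts, which made 51 windows. AURKA, BIRC5, BUB3, RACGAP1, TPX2, TTK and UBE2C had no entry. The 250 bases before the start are shown for PRC1, KIF23 and CCNB2, which had the largest changes in sh1, for CENPA and AURKB, which had the largest changes in sh1 among the genes of other chromosomes, and for PLK1 and the proliferation marker MKI67 as widely known genes of the program. Capitals mark motifs found on either strand. The core of the CHR was searched as TTTGAA and, as a variant, as TTCGAA. The box bound by NF-Y was searched as CCAAT, which reads as ATTGG where it lies on the opposite strand. The core of E2F sites was searched as GCGGGAA. In MKI67 the CHR core nearest to the start overlaps a CCAAT box by 1 base. PRC1 is at chr15:90994536-90994785 (minus strand), KIF23 at chr15:69414099-69414348 (plus strand), CCNB2 at chr15:59104896-59105145 (plus strand), CENPA at chr2:26785806-26786055 (plus strand), AURKB at chr17:8210226-8210475 (minus strand), as 1 of its 2 windows, PLK1 at chr16:23678639-23678888 (plus strand) and MKI67 at chr10:128126424-128126673 (minus strand), and each is written 5′ to 3′ in the direction of the gene.
PRC1: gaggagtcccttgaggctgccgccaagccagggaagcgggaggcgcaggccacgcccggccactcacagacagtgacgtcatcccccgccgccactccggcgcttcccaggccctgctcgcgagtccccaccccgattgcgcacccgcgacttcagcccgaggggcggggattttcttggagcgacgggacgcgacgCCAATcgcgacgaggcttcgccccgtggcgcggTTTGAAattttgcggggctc
KIF23: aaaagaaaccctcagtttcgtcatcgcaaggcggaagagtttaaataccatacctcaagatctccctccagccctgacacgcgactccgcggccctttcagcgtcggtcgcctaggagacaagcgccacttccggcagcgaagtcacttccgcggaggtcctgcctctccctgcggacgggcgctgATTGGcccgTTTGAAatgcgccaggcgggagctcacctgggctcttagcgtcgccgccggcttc
CCNB2: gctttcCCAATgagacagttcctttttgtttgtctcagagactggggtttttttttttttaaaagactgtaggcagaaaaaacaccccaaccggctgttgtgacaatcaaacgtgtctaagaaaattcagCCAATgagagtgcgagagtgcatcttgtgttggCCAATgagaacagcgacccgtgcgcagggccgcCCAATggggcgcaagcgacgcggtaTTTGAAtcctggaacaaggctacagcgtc
CENPA: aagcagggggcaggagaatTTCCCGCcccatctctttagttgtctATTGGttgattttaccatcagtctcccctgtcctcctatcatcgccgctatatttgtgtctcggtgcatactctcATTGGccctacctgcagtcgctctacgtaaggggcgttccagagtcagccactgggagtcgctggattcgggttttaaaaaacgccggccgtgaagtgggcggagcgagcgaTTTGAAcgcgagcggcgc
AURKB: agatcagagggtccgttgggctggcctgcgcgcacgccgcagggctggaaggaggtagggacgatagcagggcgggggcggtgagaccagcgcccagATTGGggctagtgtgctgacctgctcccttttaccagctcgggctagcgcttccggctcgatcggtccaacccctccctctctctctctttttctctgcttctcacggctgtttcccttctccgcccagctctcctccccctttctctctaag
PLK1: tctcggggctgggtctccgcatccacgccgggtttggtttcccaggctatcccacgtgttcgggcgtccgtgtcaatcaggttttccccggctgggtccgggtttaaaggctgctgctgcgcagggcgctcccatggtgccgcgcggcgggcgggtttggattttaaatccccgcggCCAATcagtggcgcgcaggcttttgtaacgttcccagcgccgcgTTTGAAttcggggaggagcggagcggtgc
MKI67: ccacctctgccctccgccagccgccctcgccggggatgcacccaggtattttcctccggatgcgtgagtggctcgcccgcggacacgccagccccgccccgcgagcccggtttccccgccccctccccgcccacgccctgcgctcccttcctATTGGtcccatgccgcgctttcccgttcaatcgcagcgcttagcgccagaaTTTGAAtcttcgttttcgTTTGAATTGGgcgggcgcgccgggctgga

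Each of these 7 promoters held a CCAAT, and each but that of AURKB held a CHR core. The CHR core began 20 bases before the start in PRC1, 55 in KIF23, 29 in CCNB2, 18 in CENPA and 29 in PLK1, and MKI67 had cores at 47 and 29 bases. The nearest CCAAT lay 53 bases before the start in PRC1, 64 in KIF23, 54 in CCNB2, 130 in CENPA, 153 in AURKB, 73 in PLK1 and 24 in MKI67. Over all 51 windows, 36 (70.6%) held a CHR core on either strand, against 16.4% of the 35116 promoters in the table and 12.0% of the 11503 promoters of genes with a signal at or above the median. CCAAT was found in 40 windows (78.4%), against 34.6% of all promoters and 35.4% of those of expressed genes. With both motifs counted together the share was 60.8%, against 6.38% of all promoters and 5.01% of those of expressed genes. GCGGGAA was found in 11.8%, against 6.55% of all promoters and 10.1% of those of expressed genes, which is close to the share among the mitotic genes. By gene, 33 had a window with the CHR core, 35 had one with CCAAT, and CENPE and KIF2C had neither. A CHR core was in 71.4% of the 28 windows of genes that were higher in either shRNA line and in 69.6% of the 23 windows of the others. CCAAT was in 71.4% of the windows of the higher genes and in 87.0% of the others, and at least 2 CCAAT were in 28.6% and 65.2%. These matches describe letters in a window and not sites that were shown to be bound.

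STOML2 itself was at 8.32 ± 0.12 in sh1 and 7.73 ± 0.34 in sh2, against 13.67 ± 0.03 in control (log2 signal, SD over 3 arrays), a change of -5.35 ± 0.16 (adjusted p = 2.31e-09) in sh1 and -5.94 ± 0.16 (adjusted p = 1.63e-09) in sh2. Array medians lay between 6.57 and 6.65, and arrays correlated across rows at 0.9943 to 0.9961 within groups and 0.9817 to 0.9884 between groups. Of 10 measured markers of pancreatic carcinoma epithelium, KRT8, KRT18, KRT19 and CLDN4 were at 11.64 or above on every array, while CEACAM5 (4.58 to 5.28) and CEACAM6 (5.20 to 6.02) were low on all 9. EPCAM was at 13.88 ± 0.09 in sh1 and 9.68 ± 0.19 in sh2, against 8.94 ± 0.15 in control. KRT8, KRT18 and CLDN4 were also higher in both lines. KRT19 was lower in both, at 14.50 ± 0.32 in sh1 and 15.62 ± 0.08 in sh2, against 16.19 ± 0.04 in control. CDH1 was higher in sh1, at 10.74 ± 0.22, and lower in sh2, at 8.19 ± 0.21, against 8.71 ± 0.13 in control. Endothelial markers were at 6.46 or below. Among 5 blood markers CD68 was high, at 11.70 to 12.98, and PTPRC was between 3.62 and 4.73. Of 8 fibroblast markers, COL1A1 and COL1A2 fell in both lines and THY1 rose in sh1, and the log2 of the summed signal was 9.98 to 10.30 in sh1 and 9.73 to 10.01 in sh2, against 11.22 to 11.44 in control. DCN, LUM, PDGFRA and FAP were between 2.82 and 5.37 on all arrays, near the lower quartile of row means (4.21), and the part of any such difference in the results for mitotic genes was not tested.

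All 48 mitotic genes were expressed, with mean log2 signals of 8.49 to 15.58, above the median row mean of 6.61. Levels of different genes come from different probes and are not compared with each other. Changes are log2 differences between group means with the standard error (SE) of the limma model over the 9 arrays, and a gene was called at an adjusted p under 0.05 over all 21448 rows. In sh1, 20 of the 48 rose, 1 fell (PTTG1) and 27 did not pass, with a median change of 0.33 and a range of -0.55 to 1.42. Over all rows 9.76% were called higher and 9.0% lower in sh1, and among the rows with a signal at or above the median it was 15.7% and 14.3% (30.0% in all), so the share of mitotic genes that rose (41.7%) was above the background and the share that fell (2.08%) below it. In sh2, 16 rose (33.3%), 3 fell (CDC25C, KIF20A and KIFC1, 6.25%) and 29 did not pass, with a median of 0.31 and a range of -0.81 to 1.06. The background in sh2 was 8.33% higher and 7.98% lower over all rows, and 13.6% and 12.9% among rows at or above the median signal (26.5% in all). The median change over all rows with 1 symbol was 0.02 in sh1 and 0.01 in sh2. Both comparisons use the same control arrays, so their results are not independent of each other.

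Many of these calls were close to the threshold. When each of the 9 arrays was left out in turn, 11 of the 21 calls in sh1 passed in all 9 fits and 10 did not, and the number of calls lay between 11 (without sh1 3) and 21. The sh1 count was 12 without control 1 and 13 without control 2. In sh2, 7 of the 19 calls passed in all 9 fits, and the number lay between 8 (without control 1) and 20, with 9 without control 2 or without sh2 3, 11 without sh2 1 and 12 without control 3. All 3 arrays lay above all 3 control arrays for 26 genes in sh1 and for 26 in sh2, where 18.2% and 17.1% of all rows did so, and 27.5% and 25.2% of the rows at or above the median signal. For 3 genes in sh1 and 6 in sh2 all 3 lay below, where 16.4% and 15.4% of all rows did, and 23.9% and 22.6% of those at or above the median signal.

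**Figure D1:**
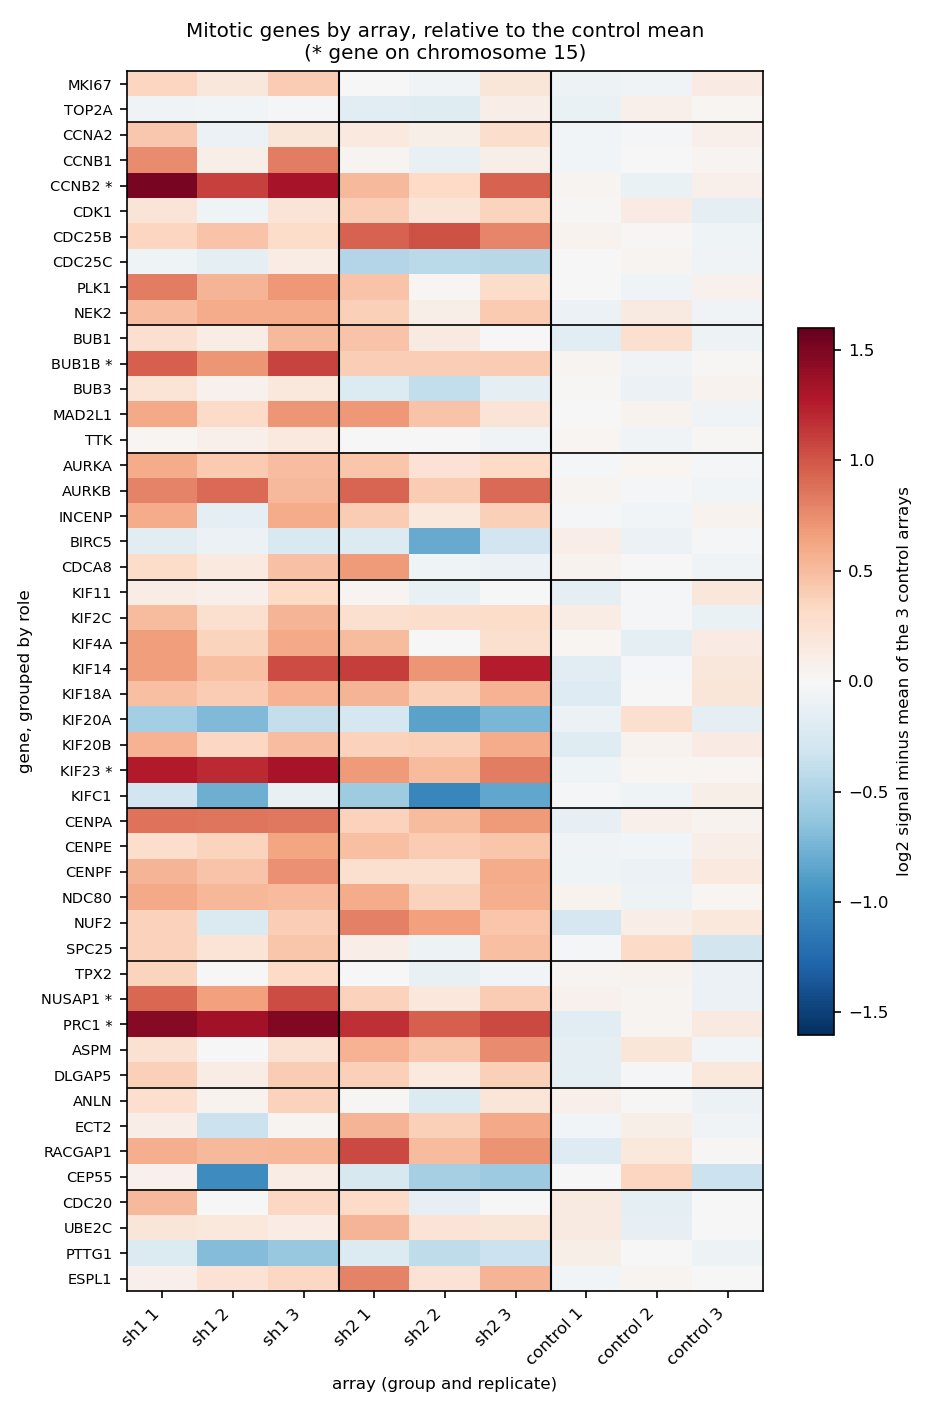
Log2 signal of each of the 48 mitotic genes (rows, grouped by role) on each of the 9 arrays (columns: sh1, sh2, control), minus the mean of the 3 control arrays. Most rows are red, that is higher, in the sh1 and sh2 columns, the 5 genes on chromosome 15 (marked with an asterisk) are darkest in sh1, and KIF20A, KIFC1 and PTTG1 are blue in both lines.

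MKI67 and TOP2A, which are used as markers of proliferating cells, did not pass in either line, other than MKI67 in sh1 under 2 alternative settings. MKI67, a coat protein of mitotic chromosomes, had log2 signals of 14.14, 13.98 and 14.21 in the sh1 arrays and 13.81, 13.74 and 13.99 in the sh2 arrays, against 13.72, 13.74 and 13.93 in the control arrays. The sh1 arrays all lay above the control arrays and the sh2 arrays overlapped them, with changes of 0.31 ± 0.13 (adjusted p = 0.127) in sh1 and 0.05 ± 0.13 (adjusted p = 0.859) in sh2. TOP2A, the topoisomerase that untangles sister chromatids, had 13.94, 13.96 and 13.98 in sh1 and 13.83, 13.80 and 14.11 in sh2, against 13.89, 14.08 and 14.03 in control, and the groups overlapped. Its change was -0.04 ± 0.13 (adjusted p = 0.881) in sh1 and -0.09 ± 0.13 (adjusted p = 0.731) in sh2. Under those settings MKI67 was at 0.44 (adjusted p = 0.0301) with arrays centred per chromosome, that is, with each array shifted by the median deviation of the expressed rows of each chromosome, and at an adjusted p of 0.0252 with a trended and robust prior.

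Of 8 cyclins, CDK1 and kinases and phosphatases of mitotic entry, CCNB2, PLK1 and NEK2 rose in sh1, while CCNB2 and CDC25B rose and CDC25C fell in sh2. Cyclin B2 (CCNB2), a partner of CDK1, had 13.15, 12.72 and 12.95 in the sh1 arrays and 12.15, 11.95 and 12.57 in the sh2 arrays, against 11.67, 11.52 and 11.71 in the control arrays. Its groups did not overlap, with sh1 highest, and it rose by 1.31 ± 0.17 (adjusted p = 0.000264) in sh1, or 2.47-fold. In sh2 it rose by 0.59 ± 0.17 (adjusted p = 0.0384), a call that ended without control 1, control 2, control 3, sh1 3, sh2 1 or sh2 3 (adjusted p up to 0.135). Cyclin B1 (CCNB1), the main partner of CDK1, had 13.23, 12.57 and 13.30 in sh1 and 12.53, 12.36 and 12.58 in sh2, against 12.44, 12.47 and 12.53 in control. The sh1 array 2 was near the control arrays and the other sh1 arrays were well above them, and the change was 0.55 ± 0.18 (adjusted p = 0.0544) in sh1 and 0.01 ± 0.18 (adjusted p = 0.982) in sh2. CDK1, the kinase that drives mitotic entry, had 11.39, 11.12 and 11.40 in sh1 and 11.58, 11.40 and 11.55 in sh2, against 11.21, 11.32 and 11.04 in control. All its sh2 arrays were above the control arrays and the sh1 arrays overlapped them, and the change was 0.11 ± 0.13 (adjusted p = 0.645) in sh1 and 0.32 ± 0.13 (adjusted p = 0.144) in sh2. CCNA2 (cyclin A2), with differences of 0.18 in sh1 and 0.17 in sh2, did not pass.

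The phosphatases that activate CDK1 differed from each other in sh2. CDC25B had 13.85, 13.97 and 13.80 in the sh1 arrays and 14.45, 14.53 and 14.29 in the sh2 arrays, against 13.57, 13.53 and 13.44 in the control arrays. Its groups did not overlap, with sh2 highest, and it rose by 0.91 ± 0.12 (adjusted p = 0.000342) in sh2, while the change in sh1 was 0.36 ± 0.12 (adjusted p = 0.0633). CDC25C, on chromosome 5, had 10.18, 10.09 and 10.37 in sh1 and 9.78, 9.82 and 9.81 in sh2, against 10.26, 10.29 and 10.20 in control. All its sh2 arrays were below the control arrays and the sh1 arrays overlapped them. CDC25C fell by 0.45 ± 0.12 (adjusted p = 0.0252) in sh2 on the deposited values, but its change was 0.05 (adjusted p = 0.825) once arrays were centred per chromosome, and the call also ended without control 1, control 2, control 3, sh2 1, sh2 2 or sh2 3 (adjusted p up to 0.0781). In sh1 its change was -0.04 ± 0.12 (adjusted p = 0.885).

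Polo-like kinase 1 (PLK1), which acts at centrosomes, kinetochores and the midzone, had 15.12, 14.84 and 15 in the sh1 arrays and 14.76, 14.33 and 14.59 in the sh2 arrays, against 14.31, 14.23 and 14.37 in the control arrays. The sh1 arrays were the highest and the sh2 arrays overlapped the control arrays. PLK1 rose by 0.68 ± 0.14 (adjusted p = 0.00536) in sh1. In sh2 its change was 0.26 ± 0.14 (adjusted p = 0.277). NEK2, a kinase that separates centrosomes, had 11.24, 11.34 and 11.34 in sh1 and 11.13, 10.85 and 11.17 in sh2, against 10.66, 10.89 and 10.69 in control, again with sh1 highest and sh2 overlapping the control. It rose by 0.56 ± 0.13 (adjusted p = 0.0113) in sh1. Its change in sh2 was 0.30 ± 0.13 (adjusted p = 0.159). Both sh1 calls ended when the median deviation of the 40 nearest expressed rows of the chromosome was subtracted (the neighbour correction), with 0.38 (adjusted p = 0.115) for PLK1 and 0.43 (adjusted p = 0.0506) for NEK2.

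Among 5 genes of the spindle checkpoint, BUB1B and MAD2L1 rose in sh1 and none passed in sh2 in limma, where 2 had an unadjusted p under 0.05. BUB1B encodes BUBR1, a part of the complex that inhibits the anaphase-promoting complex. Its signals were 12.63, 12.38 and 12.75 in sh1 and 12.06, 12.06 and 12.07 in sh2, against 11.71, 11.62 and 11.69 in control. Both lines lay above the control arrays without overlap, and BUB1B rose by 0.91 ± 0.13 (adjusted p = 0.000375) in sh1, against a change of 0.39 ± 0.13 (adjusted p = 0.0594) in sh2. MAD2L1, the checkpoint protein that binds CDC20, had 9.47, 9.18 and 9.58 in sh1 and 9.56, 9.32 and 9.08 in sh2, against 8.87, 8.92 and 8.81 in control. It too was above the control on all 6 shRNA arrays and rose by 0.54 ± 0.15 (adjusted p = 0.0294) in sh1, a call that ended without control 1, control 2, control 3, sh1 1 or sh1 3 (adjusted p up to 0.107). Its change in sh2 was 0.45 ± 0.15 (adjusted p = 0.0708). The kinase BUB1, its partner BUB3 and the kinase TTK (MPS1) had changes of 0.09 to 0.30 in sh1 and of -0.25 to 0.19 in sh2 and did not pass.

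AURKB rose in both lines and AURKA in sh1, among 5 genes of the Aurora kinases and the chromosomal passenger complex. AURKB, the kinase of that complex, had 9.78, 9.89 and 9.50 in the sh1 arrays and 9.91, 9.39 and 9.88 in the sh2 arrays, against 9.03, 8.96 and 8.94 in the control arrays. All 6 shRNA arrays lay above the control arrays, and AURKB rose by 0.75 ± 0.16 (adjusted p = 0.00739) in sh1 and 0.75 ± 0.16 (adjusted p = 0.00847) in sh2. AURKA, which acts at spindle poles, had 13.58, 13.40 and 13.47 in sh1 and 13.42, 13.21 and 13.30 in sh2, against 12.96, 13.01 and 12.96 in control, again without overlap. It rose by 0.51 ± 0.12 (adjusted p = 0.0107) in sh1. In sh2 its change was 0.33 ± 0.12 (adjusted p = 0.083). The other 3 members of the complex did not pass. The differences in sh1 and sh2 were 0.35 and 0.32 for the scaffold INCENP, 0.30 and 0.17 for borealin (CDCA8), and -0.17 and -0.44 for survivin (BIRC5), with adjusted p of 0.0876 or above.

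Kinesins, the motors that move along or depolymerise microtubules, were the largest group, with 9 genes. In sh1, KIF2C, KIF4A, KIF14, KIF18A, KIF20B and KIF23 rose and 0 fell (limma, 7 with an unadjusted p under 0.05 in either direction), and in sh2, KIF14, KIF18A, KIF20B and KIF23 rose while KIF20A and KIFC1 fell. KIF23 (MKLP1), which bundles midzone microtubules as a part of centralspindlin, had 13.95, 13.87 and 14.00 in the sh1 arrays and 13.36, 13.19 and 13.50 in the sh2 arrays, against 12.61, 12.71 and 12.71 in the control arrays. The groups were separate, with sh1 above sh2 and sh2 above control, and KIF23 rose by 1.26 ± 0.12 (adjusted p = 2.76e-05) in sh1 (2.40-fold) and 0.67 ± 0.12 (adjusted p = 0.00308) in sh2 (1.59-fold), a call in sh2 that ended with the neighbour correction at 0.36 (adjusted p = 0.0693). KIF14, which is needed for cytokinesis, had 10.64, 10.45 and 11.02 in sh1 and 11.08, 10.68 and 11.22 in sh2, against 9.80, 9.95 and 10.15 in control. It rose by 0.74 ± 0.19 (adjusted p = 0.016) in sh1, where the call ended without control 1, control 2 or sh1 3 (adjusted p up to 0.0671), and by 1.03 ± 0.19 (adjusted p = 0.00275) in sh2.

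KIF18A, which dampens chromosome movement at the metaphase plate, had 11.96, 11.88 and 12.04 in sh1 and 12.02, 11.86 and 12.04 in sh2, against 11.28, 11.49 and 11.68 in control, and all 6 shRNA arrays were above the control arrays. It rose by 0.48 ± 0.14 (adjusted p = 0.0292) in sh1 and 0.49 ± 0.14 (adjusted p = 0.0286) in sh2, and the calls ended without control 1, control 2, sh1 1 or sh1 3 (adjusted p up to 0.123) in sh1 and without control 1, control 2, sh2 1 or sh2 3 (adjusted p up to 0.122) in sh2. With the neighbour correction the sh2 call of KIF18A also ended, at 0.44 (adjusted p = 0.0561). KIF20B, a kinesin of cytokinesis, had 11.85, 11.62 and 11.78 in sh1 and 11.66, 11.67 and 11.88 in sh2, against 11.10, 11.34 and 11.42 in control, also without overlap. It rose by 0.46 ± 0.14 (adjusted p = 0.0335) in sh1, which ended without control 1, control 2, sh1 1 or sh1 3 (adjusted p up to 0.137), and by 0.45 ± 0.14 (adjusted p = 0.0428) in sh2, which ended without control 1, control 2, control 3, sh1 1, sh1 3, sh2 1, sh2 2 or sh2 3 (adjusted p up to 0.167). KIF2C (MCAK), which takes microtubules apart at centromeres, had 11.56, 11.32 and 11.60 in sh1 and 11.31, 11.34 and 11.36 in sh2, against 11.18, 11.04 and 10.95 in control. It rose by 0.44 ± 0.13 (adjusted p = 0.0321) in sh1, a call that ended without control 2, control 3, sh1 1 or sh1 3 (adjusted p up to 0.109). Its change in sh2 was 0.28 ± 0.13 (adjusted p = 0.176).

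KIF4A, a chromosome-bound kinesin that also works with PRC1 in the midzone, had 11.95, 11.64 and 11.89 in sh1 and 11.78, 11.27 and 11.53 in sh2, against 11.31, 11.12 and 11.41 in control. It rose by 0.55 ± 0.16 (adjusted p = 0.032) in sh1, which ended without control 1, control 2, sh1 1 or sh1 3 (adjusted p up to 0.116). In sh2 its difference was 0.25 ± 0.16 (adjusted p = 0.359), where the arrays overlapped the control. KIF4A has a near-identical copy, KIF4B, and its value is uncertain to that extent. KIF20A (MKLP2), which carries the passenger complex to the midzone, had 10.44, 10.27 and 10.60 in sh1 and 10.70, 10.12 and 10.25 in sh2, against 10.89, 11.23 and 10.83 in control. All 6 shRNA arrays were below the control arrays. KIF20A fell by 0.63 ± 0.18 (adjusted p = 0.0317) in sh2, which ended without control 1, control 2, sh2 2 or sh2 3 (adjusted p up to 0.122). Its change in sh1 was -0.55 ± 0.18 (adjusted p = 0.0524). KIFC1, a minus-end motor that gathers spindle poles, had 10.91, 10.43 and 11.09 in sh1 and 10.64, 10.17 and 10.38 in sh2, against 11.18, 11.14 and 11.30 in control, also below the control on all 6 arrays. It fell by 0.81 ± 0.18 (adjusted p = 0.00982) in sh2. In sh1 its change was -0.40 ± 0.18 (adjusted p = 0.168). With the neighbour correction the call ended, at -0.29 (adjusted p = 0.333) in sh2, and the difference in sh1 turned to 0.12 (adjusted p = 0.715). KIF11 (Eg5), which pushes spindle poles apart, did not pass, with differences of 0.17 and -0.03.

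Of 6 genes of the kinetochore and the centromere, 4 rose in sh1 and 4 in sh2, and all 6 had positive differences in both lines. CENPA, the histone H3 variant that marks centromeres, had 10.06, 10.05 and 10.03 in the sh1 arrays and 9.56, 9.70 and 9.87 in the sh2 arrays, against 9.06, 9.27 and 9.24 in the control arrays. The 3 groups were separate, with sh1 highest, and CENPA rose by 0.86 ± 0.13 (adjusted p = 0.00058) in sh1 and 0.52 ± 0.13 (adjusted p = 0.0155) in sh2, the sh2 call ending without control 1 or sh2 3 (adjusted p up to 0.0705). NDC80, the subunit that grips microtubules, had 12.10, 12.02 and 11.99 in sh1 and 12.09, 11.86 and 12.07 in sh2, against 11.55, 11.41 and 11.52 in control. Both lines lay above the control, and NDC80 rose by 0.54 ± 0.12 (adjusted p = 0.00809) in sh1 and 0.51 ± 0.12 (adjusted p = 0.013) in sh2, the sh2 call ending without control 2 (adjusted p up to 0.0515). Its partner NUF2 had 10.30, 9.70 and 10.32 in sh1 and 10.73, 10.59 and 10.37 in sh2, against 9.66, 10.04 and 10.10 in control, with sh1 array 2 among the control values. NUF2 rose by 0.63 ± 0.19 (adjusted p = 0.0449) in sh2, which ended without control 1, control 2, control 3, sh1 1, sh2 1, sh2 2 or sh2 3 (adjusted p up to 0.17). Its change in sh1 was 0.17 ± 0.19 (adjusted p = 0.617). SPC25, of the same complex, did not pass, with differences of 0.35 in sh1 and 0.17 in sh2.

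CENPE, a kinesin that brings chromosomes to the spindle equator, had 10.79, 10.87 and 11.14 in sh1 and 10.99, 10.91 and 10.95 in sh2, against 10.45, 10.47 and 10.62 in control. All 6 shRNA arrays were above the control arrays, and CENPE rose by 0.42 ± 0.13 (adjusted p = 0.043) in sh1 and 0.44 ± 0.13 (adjusted p = 0.0402) in sh2. These calls were close to the threshold and ended without control 1, control 2, control 3, sh1 2, sh1 3, sh2 1, sh2 2 or sh2 3 (adjusted p up to 0.154) in sh1 and without control 1, control 2, control 3, sh2 1, sh2 2 or sh2 3 (adjusted p up to 0.128) in sh2. CENPF, a large coiled-coil protein of the outer kinetochore, had 13.12, 13.03 and 13.30 in sh1 and 12.83, 12.83 and 13.16 in sh2, against 12.50, 12.48 and 12.73 in control. It rose by 0.58 ± 0.14 (adjusted p = 0.0143) in sh1, which ended without control 1, control 2 or sh1 3 (adjusted p up to 0.0586). In sh2 its change was 0.37 ± 0.14 (adjusted p = 0.111).

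Of 5 spindle assembly genes, PRC1 rose in both lines, NUSAP1 in sh1 and ASPM in sh2. PRC1, which crosslinks antiparallel microtubules in the midzone, had 14.32, 14.21 and 14.35 in the sh1 arrays and 14.04, 13.82 and 13.92 in the sh2 arrays, against 12.69, 12.91 and 13.01 in the control arrays. The shRNA arrays were all at least 13.82 and the control arrays at most 13.01. PRC1 rose by 1.42 ± 0.13 (adjusted p = 1.57e-05) in sh1 (2.68-fold) and 1.06 ± 0.13 (adjusted p = 0.000187) in sh2 (2.08-fold), the largest change among the 48 genes in each line. NUSAP1, which stabilises microtubules near chromosomes, had 13.42, 13.15 and 13.54 in sh1 and 12.87, 12.67 and 12.91 in sh2, against 12.57, 12.54 and 12.40 in control. The groups were separate, and NUSAP1 rose by 0.87 ± 0.14 (adjusted p = 0.00102) in sh1, against a change of 0.31 ± 0.14 (adjusted p = 0.167) in sh2. ASPM, a spindle pole protein, had 11.21, 10.97 and 11.21 in sh1 and 11.53, 11.42 and 11.73 in sh2, against 10.82, 11.16 and 10.93 in control, with only sh2 above all control arrays. It rose by 0.59 ± 0.14 (adjusted p = 0.0149) in sh2, which ended without control 1 or sh2 3 (adjusted p up to 0.0674). Its change in sh1 was 0.16 ± 0.14 (adjusted p = 0.517). The neighbour correction also ended the sh2 call of ASPM, at 0.41 (adjusted p = 0.0902). TPX2, an activator of AURKA, and DLGAP5 (HURP), which stabilises kinetochore fibres, had changes of 0.22 and 0.30 in sh1 and of -0.06 and 0.31 in sh2 and did not pass.

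In cytokinesis, RACGAP1 rose in both lines and ECT2 in sh2. RACGAP1, the partner of KIF23 in centralspindlin, had 13.23, 13.17 and 13.18 in the sh1 arrays and 13.71, 13.16 and 13.37 in the sh2 arrays, against 12.45, 12.82 and 12.67 in the control arrays. All 6 shRNA arrays lay above the control arrays, and RACGAP1 rose by 0.55 ± 0.16 (adjusted p = 0.0316) in sh1, which ended without control 1, control 3, sh1 1, sh1 2 or sh1 3 (adjusted p up to 0.126), and by 0.77 ± 0.16 (adjusted p = 0.00612) in sh2. ECT2, the exchange factor that activates RhoA at the furrow, had 12.10, 11.65 and 12.04 in sh1 and 12.54, 12.37 and 12.60 in sh2, against 11.95, 12.08 and 11.94 in control. The sh2 arrays were the highest and sh1 array 2 the lowest, and ECT2 rose by 0.51 ± 0.15 (adjusted p = 0.0321) in sh2, which ended without control 1, control 2, control 3, sh2 1 or sh2 3 (adjusted p up to 0.102). In sh1 its change was -0.06 ± 0.15 (adjusted p = 0.842). The sh2 call of ECT2 also ended with the neighbour correction, at 0.46 (adjusted p = 0.0833). Anillin (ANLN), a scaffold of the contractile ring, had differences of 0.23 in sh1 and 0.00 in sh2 and did not pass. CEP55, which recruits the abscission machinery to the midbody, varied most among arrays of a clone, with 12.17, 11.09 and 12.22 in sh1 (SD 0.64), and its changes of -0.28 and -0.46 did not pass.

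Of 4 genes of anaphase onset, PTTG1 fell in sh1 and ESPL1 rose in sh2. PTTG1 (securin), the inhibitor of separase, had 12.43, 11.96 and 12.04 in the sh1 arrays and 12.43, 12.25 and 12.30 in the sh2 arrays, against 12.74, 12.65 and 12.57 in the control arrays. All 6 shRNA arrays were below the control arrays, and PTTG1 fell by 0.51 ± 0.14 (adjusted p = 0.0293) in sh1, which ended without control 1, control 2, control 3, sh1 2 or sh1 3 (adjusted p up to 0.102). Its change in sh2 was -0.33 ± 0.14 (adjusted p = 0.167). In sh2 its difference turned to 0.17 (adjusted p = 0.494) with arrays centred per chromosome. PTTG1 has near-identical copies (PTTG2 and the pseudogene PTTG3P), which makes its value uncertain. Separase (ESPL1) had 9.90, 10.05 and 10.15 in sh1 and 10.61, 10.05 and 10.36 in sh2, against 9.78, 9.86 and 9.83 in control. It rose by 0.52 ± 0.15 (adjusted p = 0.0381) in sh2, which ended without control 1, control 2, control 3, sh2 1 or sh2 3 (adjusted p up to 0.123). In sh1 its change was 0.21 ± 0.15 (adjusted p = 0.409). With arrays centred per chromosome ESPL1 did not pass in sh2, at 0.19 (adjusted p = 0.448), and its difference in sh1 turned to -0.08 (adjusted p = 0.778). CDC20, the activator of the anaphase-promoting complex, and its ubiquitin-conjugating enzyme UBE2C had changes of 0.28 and 0.16 in sh1 and of 0.06 and 0.32 in sh2 and did not pass.

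**Figure D2:**
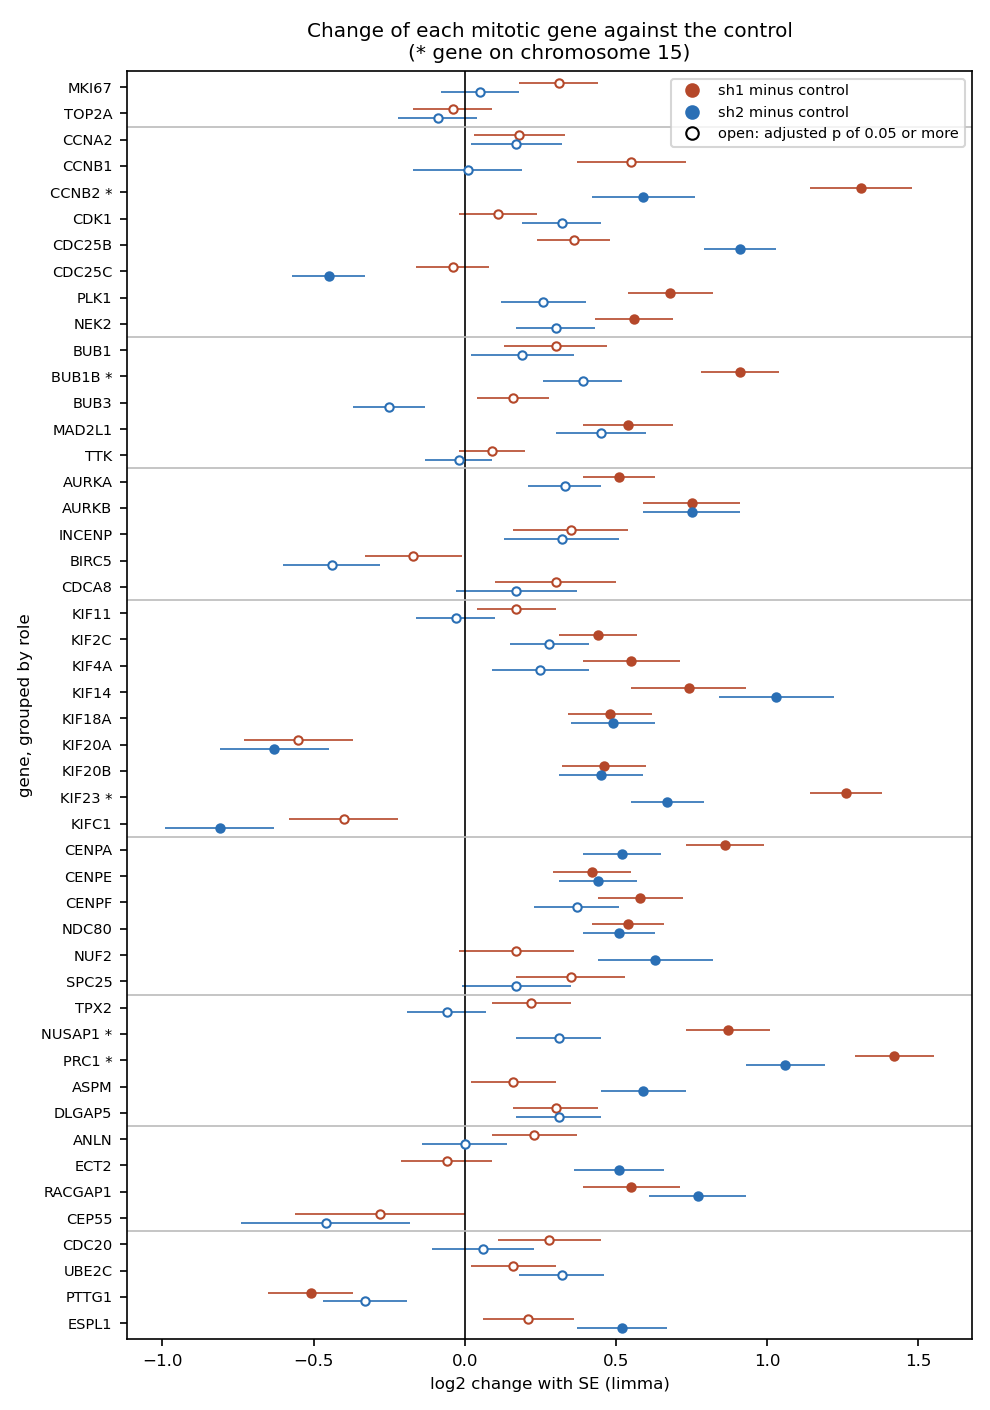
Log2 change of each of the 48 mitotic genes in sh1 (red) and sh2 (blue) against control, with the SE of the limma model as bars. Filled points passed at an adjusted p under 0.05 over all rows and open points did not, and most points lie to the right of 0, up to 1.42 for PRC1 in sh1, while KIF20A, KIFC1 and PTTG1 lie to the left in both lines.

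The 5 mitotic genes on chromosome 15 (CCNB2, BUB1B, KIF23, NUSAP1 and PRC1) had the 5 largest changes of the 48 in sh1, but not in sh2. In sh1 all 5 rose, with a median change of 1.26, against 15 that rose, 1 that fell and a median of 0.30 among the others. In sh2, 3 rose with a median of 0.59, against 13 that rose, 3 that fell and a median of 0.28. There KIF14 (1.03), CDC25B (0.91), RACGAP1 (0.77) and AURKB (0.75), on other chromosomes, had larger changes than each of the 5 but PRC1. The 5 genes were not alone on their chromosome. In sh1 the median over the 319 other expressed rows of chromosome 15 was 0.75, with 70.2% called higher. In sh2 it was 0.25, with 27.0% called higher. Among those rows, PRC1 had a larger change than 91.2% in sh1 and 94.0% in sh2, CCNB2 than 88.7% and 78.1%, and KIF23 than 87.1% and 82.8%. BUB1B and NUSAP1 were nearer the middle, above 63.0% and 59.2% of the rows in sh1 and 64.6% and 57.4% in sh2.

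**Figure D3:**
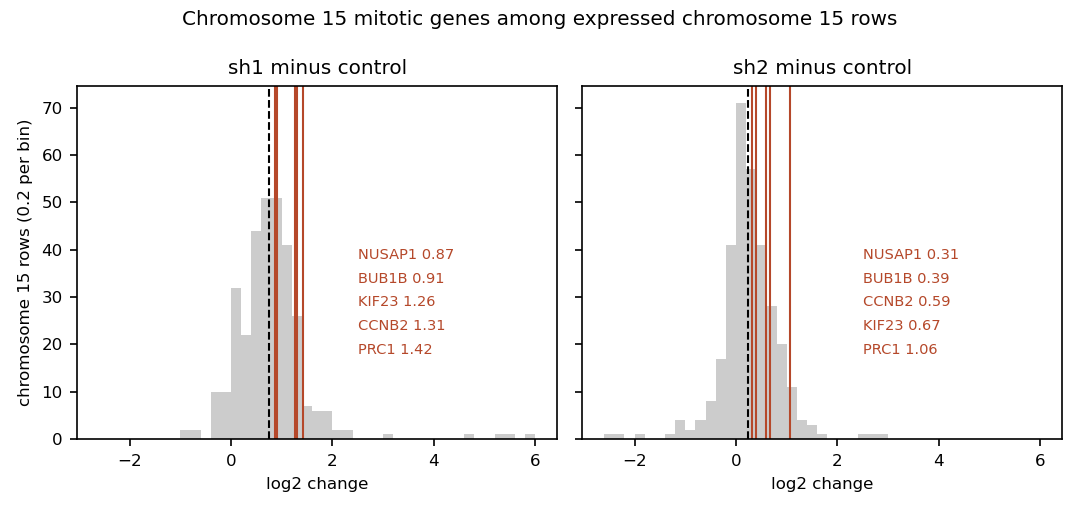
Number of expressed chromosome 15 rows other than the 5 mitotic genes by log2 change in sh1 (left) and sh2 (right) against control, in bins of 0.2. The dashed line is their median (0.75 in sh1 and 0.25 in sh2) and each red line is a mitotic gene of that chromosome, all of which lie to the right of the median.

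Centring each array per chromosome on the median deviation of its expressed rows took this shift out. PRC1 then rose by 0.67 (adjusted p = 0.00362) in sh1 and 0.78 (adjusted p = 0.00157) in sh2, and KIF23 by 0.51 (adjusted p = 0.0134) and 0.40 (adjusted p = 0.047), and both passed in both lines. The neighbour correction left PRC1 with 0.46 (adjusted p = 0.0277) in sh1 and 0.48 (adjusted p = 0.0262) in sh2. With arrays centred per chromosome, CCNB2 passed in sh1, at 0.55 (adjusted p = 0.0405), and not in sh2, at 0.32 (adjusted p = 0.245). Under the same centring BUB1B was left with 0.16 (adjusted p = 0.436) in sh1 and NUSAP1 with 0.11 (adjusted p = 0.649), so that neither passed. The gap between the medians of the 5 genes and the other 43 was 0.96 in sh1 and 0.31 in sh2 on the deposited values, and 0.25 and 0.11 after centring. What moved the rows of the chromosome together was not tested.

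Chromosome 5 moved the other way, and it carries CCNB1, CDC25C, KIF20A and PTTG1, among them 3 of the 4 mitotic genes that fell in either line. The median over its 428 other expressed rows was -0.31 in sh1, with 32.2% called lower, and -0.53 in sh2, with 54.4% called lower. After centring, KIF20A did not pass in either line, with -0.25 (adjusted p = 0.408) in sh1 and -0.13 (adjusted p = 0.714) in sh2, and PTTG1 was left with -0.22 (adjusted p = 0.37) in sh1. CCNB1 passed in sh1 after centring, at 0.85 (adjusted p = 0.00661), and had 0.51 (adjusted p = 0.0814) in sh2. It passed in neither line under the neighbour correction, at 0.57 (adjusted p = 0.0626) for sh1 and 0.30 (adjusted p = 0.343) for sh2. The nearest expressed rows around CCNB1 lay at -0.02 in sh1, so they did not share the shift of -0.31 that centring removed. Chromosome 12, where the median over other expressed rows was 0.32 in both lines, carries RACGAP1 and ESPL1. RACGAP1 was left with 0.26 (adjusted p = 0.309) in sh1 and 0.44 (adjusted p = 0.0825) in sh2, and neither gene passed in either line after centring. On other chromosomes, the calls of MAD2L1 (0.49, adjusted p = 0.064), KIF2C (0.35, adjusted p = 0.0857) and CENPE (0.36, adjusted p = 0.082) in sh1 ended as well. So did those of CENPE (0.40, adjusted p = 0.0658) and NUF2 (0.54, adjusted p = 0.0815) in sh2. Among the 39 mitotic genes outside chromosomes 5 and 15, 15 were called higher (38.5%) and 0 lower in sh1 on the deposited values. Their median was 0.30, and 17 had an unadjusted p under 0.05 in either direction (limma). In sh2, 13 were higher (33.3%) and 1 lower (2.56%), with a median of 0.31 and 22 at that unadjusted p (limma). On the deposited values 9.76% of all rows were called higher and 9.0% lower in sh1, and 8.33% and 7.98% in sh2. Among rows at or above the median signal it was 15.7% and 14.3% in sh1, and 13.6% and 12.9% in sh2. Over all 48 genes, 16 rose (33.3%) and 0 fell in sh1 after centring, with a median of 0.27. Under the same centring 8.31% of all rows were called higher and 10% lower, and 12.7% and 14.8% of those at or above the median signal. In sh2, 11 rose (22.9%) and 1 fell (KIFC1, 2.08%), with a median of 0.21, where 7.86% of all rows were called higher and 7.6% lower, and 11.8% and 11.6% of those at or above the median signal. With the neighbour correction, 15 rose (31.2%) and 0 fell in sh1, where 8.16% of all rows were called higher and 9.27% lower, and 11.3% and 13.0% of those at or above the median signal. In sh2, 8 rose (16.7%) and 0 fell, where 7.71% of all rows were called higher and 7.06% lower, and 10.6% and 10.1% of those at or above the median signal. In these 3 fits with 0 that fell, 0 were lower at an unadjusted p under 0.05 in limma.

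**Figure D4:**
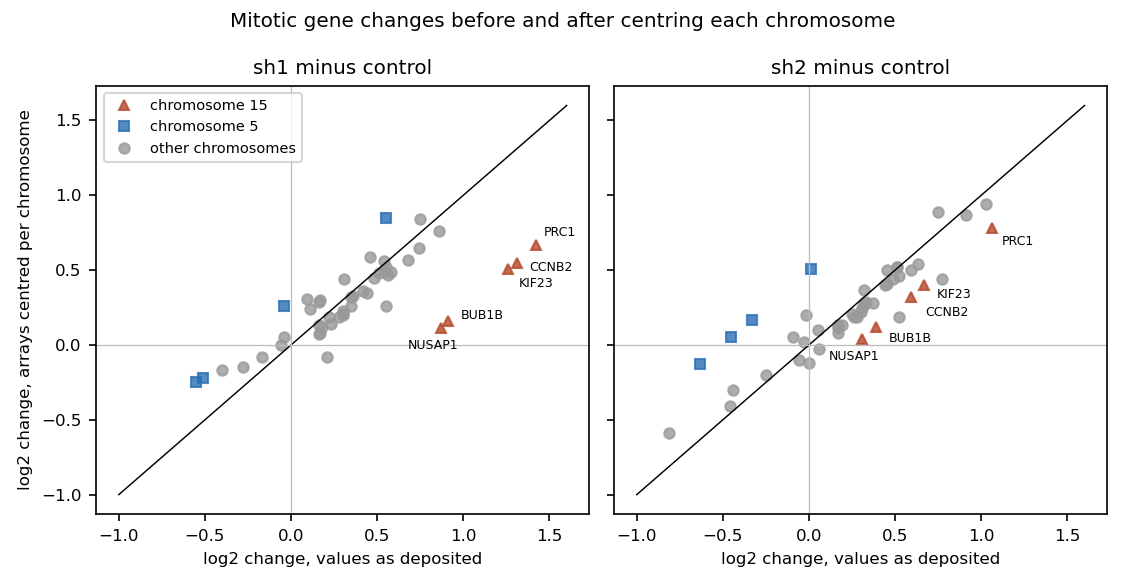
Log2 change of each mitotic gene on the deposited values (x axis) and with arrays centred per chromosome (y axis) in sh1 and sh2 against control, with the diagonal marking equal values. The chromosome 15 genes (triangles) lie below the diagonal and the chromosome 5 genes (squares) above it, and most of the other genes (circles) lie close to it.

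The lines differed from each other for 7 of the 48 genes in the direct comparison of sh2 with sh1, in which 11.3% of all rows were called and 17.9% of those at or above the median signal. CDC25B and ECT2 were higher in sh2 than in sh1 (4.17%, against 5.73% of all rows and 9.29% of those at or above the median signal), by 0.55 ± 0.12 (adjusted p = 0.0124) and 0.57 ± 0.15 (adjusted p = 0.0252). Their arrays did not overlap between the lines. All 3 sh2 arrays lay above all 3 sh1 arrays for 4 genes and below for 13, where 13.1% and 14.0% of all rows did, and 18.5% and 20.6% of those at or above the median signal. CCNB2, CDC25C, BUB1B, KIF23 and NUSAP1 were lower (10.4%, against 5.57% of all rows and 8.63% of those at or above the median signal). Their differences were -0.72 ± 0.17 (adjusted p = 0.02) for CCNB2, -0.59 ± 0.12 (adjusted p = 0.00917) for KIF23, -0.55 ± 0.14 (adjusted p = 0.024) for NUSAP1 and -0.52 ± 0.13 (adjusted p = 0.0203) for BUB1B, all on chromosome 15, and -0.41 ± 0.12 (adjusted p = 0.049) for CDC25C. The other expressed rows of chromosome 15 had a median difference of -0.48 between sh2 and sh1, with 45.8% called lower, and after centring per chromosome none of these 5 passed, with -0.11 (adjusted p = 0.675) for KIF23. PRC1 differed by -0.37 ± 0.13 (adjusted p = 0.102), which did not pass. Only KIF23 passed in all 9 fits that left out 1 array. CDC25B ended without sh2 2 (adjusted p up to 0.0543), ECT2 without sh1 2, sh2 1 or sh2 3 (adjusted p up to 0.0833), CCNB2 without sh1 1, sh1 3, sh2 1 or sh2 2 (adjusted p up to 0.0824), NUSAP1 without sh1 1, sh1 3 or sh2 2 (adjusted p up to 0.0952), BUB1B without sh1 1, sh1 3, sh2 1, sh2 2 or sh2 3 (adjusted p up to 0.0827) and CDC25C without control 1, control 2, control 3, sh1 1, sh1 3, sh2 1, sh2 2 or sh2 3 (adjusted p up to 0.167). The median difference over the 48 genes was -0.15, against -0.01 over all rows with a symbol.

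Within the shRNA clones, but not in the control clone, the mitotic genes deviated together from array to array. On sh1 array 2, 40 of 48 were below their sh1 mean, by 0.154 on average, and on sh2 array 2, 42 of 48 were below their sh2 mean, by 0.134 on average. The other shRNA arrays had mean deviations of 0.042 to 0.092, and the control arrays of -0.033 to 0.024. Over all rows the mean deviation of an array was between -0.006 and 0.012. The genes of chromosome 15 and those of other chromosomes shared the dip, with mean deviations of -0.160 and -0.153 on sh1 array 2 and -0.138 and -0.133 on sh2 array 2. Without sh1 array 2 the median change of the 48 genes in sh1 was 0.40 with 20 calls, and without sh2 array 2 the median in sh2 was 0.38 with 14 calls. The part of these array differences in the results was not tested beyond these fits.

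**Figure D5:**
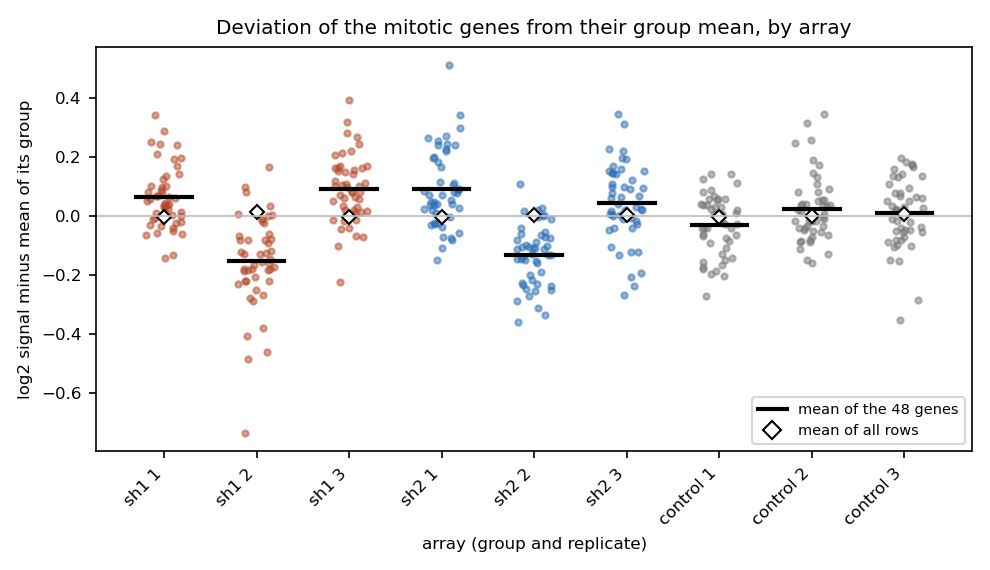
Deviation of each of the 48 mitotic genes (points) from the mean of its group, by array, in log2 signal, with the mean over the genes as a black line and the mean over all rows as a diamond. The points of sh1 2 and sh2 2 lie mostly below 0, at a mean of -0.154 and -0.134, while all diamonds lie near 0.

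Of a further 133 measured genes of the same pathway, 29 were higher (21.8%) and 8 lower (6.02%) in sh1, with a median change of 0.22. Over all rows these shares were 9.76% and 9.0%, and 15.7% and 14.3% of those at or above the median signal. In sh2, 15 were higher (11.3%) and 9 lower (6.77%), with a median of 0.07. These shares are near the 8.33% and 7.98% of all rows and are not above the 13.6% and 12.9% of those at or above the median signal. Of the 133, 7 lie on chromosome 15, and 6 of the 7 were higher in sh1 and 3 in sh2. Among the other 126, 23 were higher (18.3%) and 8 lower (6.35%) in sh1, with a median of 0.19. In sh2, 12 of the 126 were higher (9.52%) and 9 lower (7.14%), with a median of 0.06. Among 27 centrosome and microtubule genes, 10 were higher (37.0%) and 1 lower in sh1, with 6 higher (22.2%) and 0 lower in sh2 (limma, 8 with an unadjusted p under 0.05 in either direction in sh2). CEP152, a scaffold for centriole duplication on chromosome 15, rose by 1.21 ± 0.13 (adjusted p = 5.41e-05) in sh1 and 0.90 ± 0.13 (adjusted p = 0.000615) in sh2, and by 0.46 (adjusted p = 0.0266) and 0.62 (adjusted p = 0.00593) with arrays centred per chromosome. HAUS6, of the augmin complex that branches spindle microtubules, rose by 0.76 ± 0.13 (adjusted p = 0.0019) and 0.69 ± 0.13 (adjusted p = 0.00396), and SASS6, a centriole cartwheel protein, by 0.69 ± 0.12 (adjusted p = 0.00157) and 0.42 ± 0.12 (adjusted p = 0.0293). The sh2 call of SASS6 ended after centring at 0.34 (adjusted p = 0.082). KNSTRN, an adaptor of spindle and kinetochore on chromosome 15, rose by 0.79 ± 0.13 (adjusted p = 0.00102) and 0.41 ± 0.13 (adjusted p = 0.0485), but after centring neither call was left, at 0.04 (adjusted p = 0.88) and 0.14 (adjusted p = 0.532).

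Of 32 further kinetochore genes, the sh1 line had 7 higher (21.9%) and 3 lower (9.38%), and the sh2 line 3 higher (9.38%) and 4 lower (12.5%), and the shares in sh2 were near those of all rows. KNTC1, a part of the complex that brings checkpoint proteins to kinetochores, rose by 1.21 ± 0.15 (adjusted p = 0.000134) in sh1 and 1.00 ± 0.15 (adjusted p = 0.000651) in sh2, and KNL1, the platform for BUB1 on chromosome 15, by 1.16 ± 0.12 (adjusted p = 5.27e-05) and 0.68 ± 0.12 (adjusted p = 0.00309). After centring KNL1 passed in both, at 0.41 (adjusted p = 0.0393) in sh1 and 0.40 (adjusted p = 0.0467) in sh2. MAD2L1BP (p31comet), which silences the checkpoint, fell by 0.67 ± 0.13 (adjusted p = 0.00317) in sh1 and fell by 0.91 ± 0.13 (adjusted p = 0.00045). OIP5, which helps load CENPA and lies on chromosome 15, rose by 1.08 ± 0.16 (adjusted p = 0.000553) in sh1, a call that ended after centring at 0.32 (adjusted p = 0.201). Its change in sh2 was 0.01 ± 0.16 (adjusted p = 0.98). Of 17 subunits and partners of the anaphase-promoting complex, 2 were higher (11.8%) and 1 lower (5.88%) in sh1, with 1 higher (5.88%) and 2 lower (11.8%) in sh2. Of all rows, 9.76% were higher and 9.0% lower in sh1, and 8.33% and 7.98% in sh2. ANAPC1, its largest subunit, rose by 0.78 ± 0.13 (adjusted p = 0.00115) and 0.53 ± 0.13 (adjusted p = 0.0152), and ANAPC11, its catalytic RING subunit, fell by 0.89 ± 0.19 (adjusted p = 0.00657) and fell by 0.69 ± 0.19 (adjusted p = 0.0289). The sh2 call of ANAPC11 ended after centring at -0.56 (adjusted p = 0.0592). UBE2S, which extends ubiquitin chains for the complex, rose by 0.68 ± 0.16 (adjusted p = 0.0107) in sh1. In sh2 its difference was 0.49 ± 0.16 (adjusted p = 0.056), which passed after centring at 0.53 (adjusted p = 0.0377). CDC23, a scaffold subunit on chromosome 5, fell by 0.62 ± 0.15 (adjusted p = 0.0127) in sh2, a call that ended after centring at -0.12 (adjusted p = 0.623). Its difference in sh1 was -0.41 ± 0.15 (adjusted p = 0.0743).

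Of 17 cohesin and condensin genes, 1 was higher in sh1 (5.88%, against 9.76% of all rows) and 1 lower in sh2 (5.88%, against 7.98% of all rows). The condensin II subunit NCAPG2 rose by 1.02 ± 0.16 (adjusted p = 0.000797) in sh1. In sh2 its difference was 0.41 ± 0.16 (adjusted p = 0.109). NCAPH2, of the same complex, fell by 0.51 ± 0.15 (adjusted p = 0.0418) in sh2. Its difference in sh1 was -0.29 ± 0.15 (adjusted p = 0.23). Of 16 other mitotic kinases, cyclins and phosphatase regulators, 4 were higher and 1 lower in sh1. In sh2, 3 of the 16 were higher (18.8%) and 0 lower (limma, 6 with an unadjusted p under 0.05 in either direction in sh2). Of all rows, 9.76% were higher and 9.0% lower in sh1, and 8.33% and 7.98% in sh2. Among rows at or above the median signal it was 15.7% and 14.3% in sh1, and 13.6% and 12.9% in sh2. CCNF (cyclin F) rose by 0.90 ± 0.23 (adjusted p = 0.0171) and 0.84 ± 0.23 (adjusted p = 0.0283), and CKS1B, a small CDK-binding protein, by 0.54 ± 0.12 (adjusted p = 0.00739) and 0.73 ± 0.12 (adjusted p = 0.00127). MASTL (Greatwall), which restrains the phosphatase PP2A in mitosis, fell by 1.04 ± 0.19 (adjusted p = 0.00257) in sh1. In sh2 its difference was 0.09 ± 0.19 (adjusted p = 0.818). BORA, which helps AURKA activate PLK1, rose by 0.74 ± 0.19 (adjusted p = 0.0186) in sh2, a call that ended after centring at 0.51 (adjusted p = 0.0923). Its difference in sh1 was 0.41 ± 0.19 (adjusted p = 0.172).

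Among 24 regulators of mitotic transcription, 5 were higher (20.8%) and 2 lower (8.33%) in sh1. The shares in sh1 were 9.76% and 9.0% of all rows, and 15.7% and 14.3% of those at or above the median signal. In sh2, 2 were higher (8.33%) and 2 lower (8.33%), the shares that all rows had there (8.33% and 7.98%). CDKN1A (p21), the inhibitor of cyclin-dependent kinases that acts upstream of the DREAM complex, was at log2 signals of 8.14 ± 0.12 in sh1 and 7.40 ± 0.11 in sh2, against 9.49 ± 0.17 in control (SD, n = 3), with no overlap of the ranges. It fell by 1.35 ± 0.14 (adjusted p = 3.14e-05) in sh1 and fell by 2.09 ± 0.14 (adjusted p = 1.07e-06) in sh2. Of the subunits of NF-Y, the factor that binds CCAAT, NFYB and NFYA went in opposite directions on the deposited values. NFYC did not pass, with 0.32 (adjusted p = 0.212) in sh1 and -0.11 (adjusted p = 0.741) in sh2. NFYB rose by 1.22 ± 0.13 (adjusted p = 3.92e-05) and 0.68 ± 0.13 (adjusted p = 0.00315), while NFYA fell by 0.58 ± 0.12 (adjusted p = 0.00568) and fell by 0.55 ± 0.12 (adjusted p = 0.00985). After centring both NFYA calls ended, at -0.36 (adjusted p = 0.0527) in sh1 and -0.33 (adjusted p = 0.0811) in sh2, and NFYB passed in sh1 at 0.93 (adjusted p = 0.000339) and not in sh2 at 0.36 (adjusted p = 0.0818). E2F5, which can act in the DREAM complex, rose by 0.69 ± 0.14 (adjusted p = 0.00433) and 0.49 ± 0.14 (adjusted p = 0.0334). FOXM1 rose by 0.73 ± 0.21 (adjusted p = 0.0323) in sh1, a call that ended after centring at 0.44 (adjusted p = 0.175). MYBL2 (B-MYB) rose by 0.64 ± 0.17 (adjusted p = 0.0235) in sh1 and passed after centring at 0.61 (adjusted p = 0.0259). Neither passed in sh2, with 0.16 (adjusted p = 0.7) for FOXM1 and 0.12 (adjusted p = 0.736) for MYBL2.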

How the data were processed

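Biotin-labelled total RNA of 3 groups with 3 arrays each was measured on 1-colour whole-transcript arrays. The values are on a log2 scale, as read from their range (2.03 to 18.57), and were deposited after processing with Transcriptome Analysis Console, per the submitters' processing notes. No source used here gives its version, background correction or normalization. Gene symbols came from the platform annotation, which gave 1 symbol to 17709 of 21448 rows. Chromosomes and promoters came from RefSeq.

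All 9 arrays entered 1 linear model without intercept (limma 3.58.1, R 4.3.3), followed by eBayes and Benjamini-Hochberg adjustment over all rows of a comparison, and rows were called at an adjusted p under 0.05. The fit was tested on simulated data. Rows were called expressed at a mean at or above the median row. For centring per chromosome, each array was shifted by the median deviation of the expressed rows of that chromosome. Another alternative subtracted the median deviation of the 40 nearest expressed neighbours. The other alternatives were the groups in the fit, scaling, a filter on low rows, the prior, the threshold, a replicate block and leaving out each array. The number of arrays limits the precision. Array numbers were not used as pairs in the main fit. Same-number arrays of different groups correlated in their deviations from the group means over all rows at -0.0358 to 0.18, over 0.1 in 2 of 9 pairs. Such low correlations cannot exclude that arrays of the same number shared a step. Array 2 was the lowest for the mitotic genes in both shRNA lines, and whether this came from a shared step was not tested.

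The 48 genes, the lists of other mitotic genes and markers and the tests were chosen with earlier results of these data known. All 48 genes may be named. Values on all 9 arrays are given for those called in either line against control, for those on chromosome 15 and for MKI67, TOP2A, CCNB1, CDK1, AURKA, AURKB and PLK1. From each other list, up to 4 genes were named, those with the largest change among the genes called in both lines and then in 1. FOXM1, MYBL2 and NFYC were named beyond this rule, since the text describes these factors.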

Additional observations from a re-analysis of the deposited data

Results flagged for a closer look

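The test of sh2 against sh1 separated the lines for 7 mitotic genes. The differences (sh2 minus sh1, log2) were 0.55 for CDC25B and 0.57 for ECT2, which were higher in sh2. They were -0.72 for CCNB2, -0.59 for KIF23, -0.55 for NUSAP1 and -0.52 for BUB1B, all on chromosome 15, and -0.41 for CDC25C on chromosome 5, which were lower in sh2. The adjusted p lay between 0.00917 for KIF23 and 0.049 for CDC25C in limma. CDC25B and ECT2 passed with arrays centred per chromosome, at 0.54 (adjusted p = 0.0159) and 0.52 (adjusted p = 0.0397), and the other 5 did not. With the neighbour correction CDC25B passed, at 0.53 (adjusted p = 0.0198), and ECT2 did not, at 0.44 (adjusted p = 0.117).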

How the results depend on the processing

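The median change of the 48 genes kept its sign under every alternative run, at 0.26 to 0.40 in sh1 and 0.21 to 0.38 in sh2 against control (0.21 with arrays centred per chromosome) and at -0.22 to -0.07 in sh2 against sh1. The number called against control was 21 in sh1 and 19 in sh2. It fell to 9 and 7 at an adjusted p under 0.01, to 3 and 2 with a change of at least 1 on the log2 scale, and, in sh2, to 12 with centring per chromosome and 8 with the neighbour correction. Without 1 array it was 11 to 21 in sh1 and 8 to 20 in sh2. The 7 calls of sh2 against sh1 became 3 with only these groups in the fit, 12 with a trended and robust prior, 3 with centring per chromosome, 1 with the neighbour correction, 1 at an adjusted p under 0.01, 0 with a change of at least 1 on the log2 scale, 3 without the chromosome 15 genes, and 2 to 8 without 1 array. Here a limma fit without an array leaves 2 arrays in a group, which share the spread of the others. The 3 calls with centring per chromosome were CDC25B, ECT2 and BUB3. BUB3 was not among the 7 and was lower in sh2 than in sh1 after centring, at -0.49 (adjusted p = 0.0212).

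The gap between the medians of the chromosome 15 genes and the others was 0.96 in sh1, 0.31 in sh2 and -0.45 in sh2 against sh1. It was 0.25, 0.11 and 0.02 with centring per chromosome and 0.16, 0.10 and 0.08 with the neighbour correction, and in sh2 it was 0.15 to 0.42 without 1 array. These corrections subtract the shift of the rows around a gene by construction. Of the calls, direction turned with these corrections for CDC25C in sh2 (0.05 with centring and 0.30 with the neighbour correction) and for KIF20A in sh2 (0.05 with the neighbour correction). The difference of NUSAP1 in sh2 against sh1 was -0.07 with centring and 0.00 with the neighbour correction. Of the values that were not called, 7 turned in sh1, 6 in sh2 and 7 in sh2 against sh1. Among these were CDC25C in sh1 (0.45 with the neighbour correction, which passed at an adjusted p of 0.0251), PTTG1 in sh2 (0.17 and 0.31), KIFC1 in sh1 (0.12), BIRC5 (0.28 in sh1 and 0.05 in sh2) and ESPL1 in sh1 (-0.08 and -0.09). A replicate block gave 21, 15 and 6 calls, without RACGAP1 in sh1, without KIF20A, KIF20B, NUF2 and ESPL1 in sh2 and without CDC25C in sh2 against sh1, and with CCNB1 added in sh1. CCAAT was found in 20 windows on 1 strand, against 40 on both strands.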
